A study of Mus musculus with 60 samples.

Results

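The 5 genes described here are histone genes of mouse embryonic stem cells (mESCs) whose RNA was lower after POLE4 depletion in MCM2-2A cells, namely Hist1h2aa, Hist1h2ba, Hist1h1t, Hist3h2ba and the pseudogene Hist3h2bb-ps. They make up 5 of the 55487 genes in the count tables, and they were picked by name on the 24 h comparison between dPOLE4 MCM2-2A cells and Ctrl MCM2-2A cells, which is therefore given here without a test. RNA was sequenced from E14JU mESCs in 60 libraries, 3 from each of 20 groups. All cells carried POLE4-dTAG, a degron tag on the endogenous POLE4 protein, so that dTAG removed the protein and DMSO left it in place. Ctrl and dPOLE4 are POLE4-dTAG cells with wild-type MCM2 (WT) given DMSO and dTAG, while Ctrl MCM2-2A and dPOLE4 MCM2-2A are POLE4-dTAG/MCM2-2A cells given the same agents. Each of the 4 was collected after 24 h of treatment in serum and LIF (T0), and after a following 12 h (T12), 24 h (T24) or 60 h (T60) with retinoic acid (RA). A separate experiment, in its own count table, held the same 4 after 96 h of treatment without RA. Each background was 1 edited line, so that the MCM2-2A change cannot be told apart from other differences between the lines. Because dTAG acts on protein and MCM2-2A is a change within the Mcm2 coding sequence, the RNA level of these targets checks neither.

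Histones of the replication-dependent kind are made in S phase from genes without introns, and their RNAs normally end in a conserved stem-loop that the stem-loop binding protein SLBP recognises, instead of a poly(A) tail. Hist1h2aa and Hist1h2ba encode the H2A and H2B variants TH2A and TH2B, which are known from male germ cells and oocytes, and Hist1h1t encodes H1t, the linker histone of spermatocytes. Hist3h2ba encodes an H2B of the small histone cluster on chromosome 11, and Hist3h2bb-ps is annotated there as a processed pseudogene related to H2B. POLE4 is a histone-binding subunit of DNA polymerase epsilon, which copies the leading strand, and MCM2-2A carries a mutated histone-binding region of the MCM2 helicase subunit, which passes parental histones to the lagging strand.

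All 5 genes have 1 exon. On mm10, Hist1h2aa (ENSMUSG00000060081) lies on the plus strand at chr13:23934462-23934851 and Hist1h2ba (ENSMUSG00000050799) on the minus strand at chr13:23933773-23934156, with their annotated starts 306 bases apart. Hist1h1t (ENSMUSG00000036211) is at chr13:23695814-23696725 on the plus strand, within the large histone cluster. On chromosome 11, Hist3h2ba (ENSMUSG00000056895) is at chr11:58948920-58949533 on the plus strand, and Hist3h2bb-ps (ENSMUSG00000080712) is at chr11:58954048-58954512 on the minus strand, with a start 5592 bases away.

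The promoters are shown because Hist1h2aa and Hist1h2ba, which are read in opposite directions from 1 shared stretch, moved together in these data. RefSeq (GRCm38.p6) promoter windows, from 250 bases before to 50 after the start, were found for 4 of the 5 genes, and those of Hist1h2aa and Hist1h2ba share 220 bases, so that only the first is printed. Capitals mark the octamer (ATTTGCAT), the CCAAT box (CCAAT), the TATA box (TATAAA) and the GC box (GGGCGG), searched on both strands.
Hist1h2aa, chr13:23934187-23934486, plus strand: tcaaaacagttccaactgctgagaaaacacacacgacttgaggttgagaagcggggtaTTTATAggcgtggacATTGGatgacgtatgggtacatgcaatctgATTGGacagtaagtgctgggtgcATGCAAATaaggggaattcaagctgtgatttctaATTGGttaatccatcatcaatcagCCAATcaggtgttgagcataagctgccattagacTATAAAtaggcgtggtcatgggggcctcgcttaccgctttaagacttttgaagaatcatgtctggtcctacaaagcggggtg
Hist1h1t, chr13:23695561-23695860, plus strand: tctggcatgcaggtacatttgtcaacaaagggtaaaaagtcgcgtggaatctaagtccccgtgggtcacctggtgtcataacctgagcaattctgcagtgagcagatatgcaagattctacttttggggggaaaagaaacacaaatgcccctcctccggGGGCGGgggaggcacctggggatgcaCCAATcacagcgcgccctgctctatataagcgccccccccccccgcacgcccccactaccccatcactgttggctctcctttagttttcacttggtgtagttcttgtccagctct
Hist3h2ba, chr11:58948661-58948960, plus strand: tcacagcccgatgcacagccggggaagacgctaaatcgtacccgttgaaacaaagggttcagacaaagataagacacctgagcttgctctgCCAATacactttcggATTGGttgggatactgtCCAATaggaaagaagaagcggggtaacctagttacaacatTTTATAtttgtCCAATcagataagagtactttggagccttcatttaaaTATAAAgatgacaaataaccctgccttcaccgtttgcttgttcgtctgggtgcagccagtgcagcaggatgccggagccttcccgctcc

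The octamer, a sequence known from H2B promoters, stands once in the shared stretch, at -124 from the RefSeq start of Hist1h2aa on the reverse strand and at -164 from that of Hist1h2ba on its own strand. It is in 2 of the 4 member windows, in 1.74% of all 32851 promoter windows and in 20.3% of the 59 windows of the other replication-dependent histone genes. The CCAAT box is in all 4 windows, against 37.4% of all windows and 84.7% of the other histone windows. A TATA box is in 3 of the 4, against 13.6% and 54.2%, and lies at -32 in Hist1h2aa and at -39 in Hist3h2ba. The GC box is in Hist1h1t alone, against 35.7% and 39%. The palindromes TGACGTCA (1.79% of all windows and 6.78% of the histone windows) and CACGTG (7.15% and 0%) are in none of the 4. These are matches of letters and not measured binding.

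The annotated transcripts were searched for the stem-loop as well. The stem-loop of replication-dependent histone RNAs was found in the annotated transcripts of Hist1h1t (bases 712 to 727) and Hist3h2ba (bases 430 to 445), printed here with the 5 bases on each side and the stem-loop in capitals.
Hist1h1t: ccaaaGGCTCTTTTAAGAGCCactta
Hist3h2ba: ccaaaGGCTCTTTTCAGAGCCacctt
The annotated transcripts of Hist1h2aa and Hist1h2ba, 390 and 384 bases long, and that of Hist3h2bb-ps hold no such sequence, which says only that these letters are not in these annotated transcripts. A transcript annotated without its full end could not hold the stem-loop, so that how these RNAs end was not tested.

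Because reads with several alignments were kept and shared out by the authors' counting, near-identical copies bear on the counts. Of all windows of 100 bases, the length of 1 read, 27.4% in Hist1h2ba occur unchanged in transcripts of 11 other genes, foremost Hist1h2bj, Hist1h2bq and Hist1h2br, so that its counts are the least certain. Hist3h2ba and Hist3h2bb-ps share 4.85% and 6.83% of their windows with each other and are identical at 95.3% of 381 aligned bases. In Hist1h2aa, 10.3% of windows are shared with Gm44344 alone, a miRNA gene annotated on the other strand of the same place, and Hist1h1t shares none of its 813 windows.

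The 48 libraries of the T0 to T60 series held 10461077 to 46609151 counts each, and the 12 of 96 h held 7126100 to 23598266. A library held 12 to 529 counts of Hist1h1t, 45 to 856 of Hist1h2aa, 24 to 796 of Hist1h2ba, 136 to 2145 of Hist3h2ba and 22 to 452 of Hist3h2bb-ps, so that Hist3h2ba had the smallest counting error. The cells were checked against markers. The summed level of 7 stem cell genes (Pou5f1, Sox2, Zfp42, Nanog, Klf4, Dppa5a and Tdgf1) lay between 3137 and 4338 CPM at T0 and between 267 and 914 CPM at T60. Of the genes that define spermatids, Prm1 was at 0 in 58 of 60 libraries and Tnp1 in 37, and none of Prm1, Prm2, Tnp1, Tnp2 and Acrv1 passed 0.21 CPM. The sum over all 8 spermatid and spermatocyte markers, carried by Ddx4 and Sycp3, lay between 15.2 and 26.5 CPM in the libraries with wild-type MCM2 and between 27.6 and 61.3 CPM in those with MCM2-2A. Fibroblast markers summed to between 17.0 and 456 CPM. The 2-cell-like markers (Zscan4c, Zscan4d, Tcstv1, Tcstv3 and the repeat MERVL-int) summed to between 537 and 5582 CPM, carried by MERVL-int (535 to 5384 CPM). Both sums were highest in Ctrl at T60. At 96 h the mean 2-cell-like sum was 1929 CPM in dPOLE4 MCM2-2A, 958 in Ctrl MCM2-2A, 1049 in dPOLE4 and 836 in Ctrl. What part these cell states had in the levels below was not tested. In bulk RNA, fewer cells making a transcript and less transcript per cell cannot be told apart.

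Other histones known from germ cells were close to absent. Of 25 such genes in the tables (among them the linker histones H1foo, H1fnt and Hils1, and H2A variants of the H2afb and H2al families), 16 were at 0 in all 48 libraries of the first experiment and 17 in all 12 of the second, and 0 passed the expression filter. The highest, H3f3c, reached 0.483 CPM (14 counts) and 0.510 CPM (8 counts).

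Per length, Hist3h2ba was the most abundant of the 5 genes in Ctrl at T0, at 58.3 ± 5.99 CPM per kb (SD, n = 3, as for all values with ± given for a level). Hist1h2aa followed at 23.4 ± 0.860, Hist3h2bb-ps at 16.9 ± 4.15, Hist1h2ba at 16.1 ± 3.24 and Hist1h1t at 7.98 ± 0.776 CPM per kb, where Hist3h2bb-ps and Hist1h2ba did not differ beyond their spread. All further levels are CPM per gene with TMM scaling, to be compared between groups and not between genes, and they are set side by side only within an experiment.

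**Figure D1:**
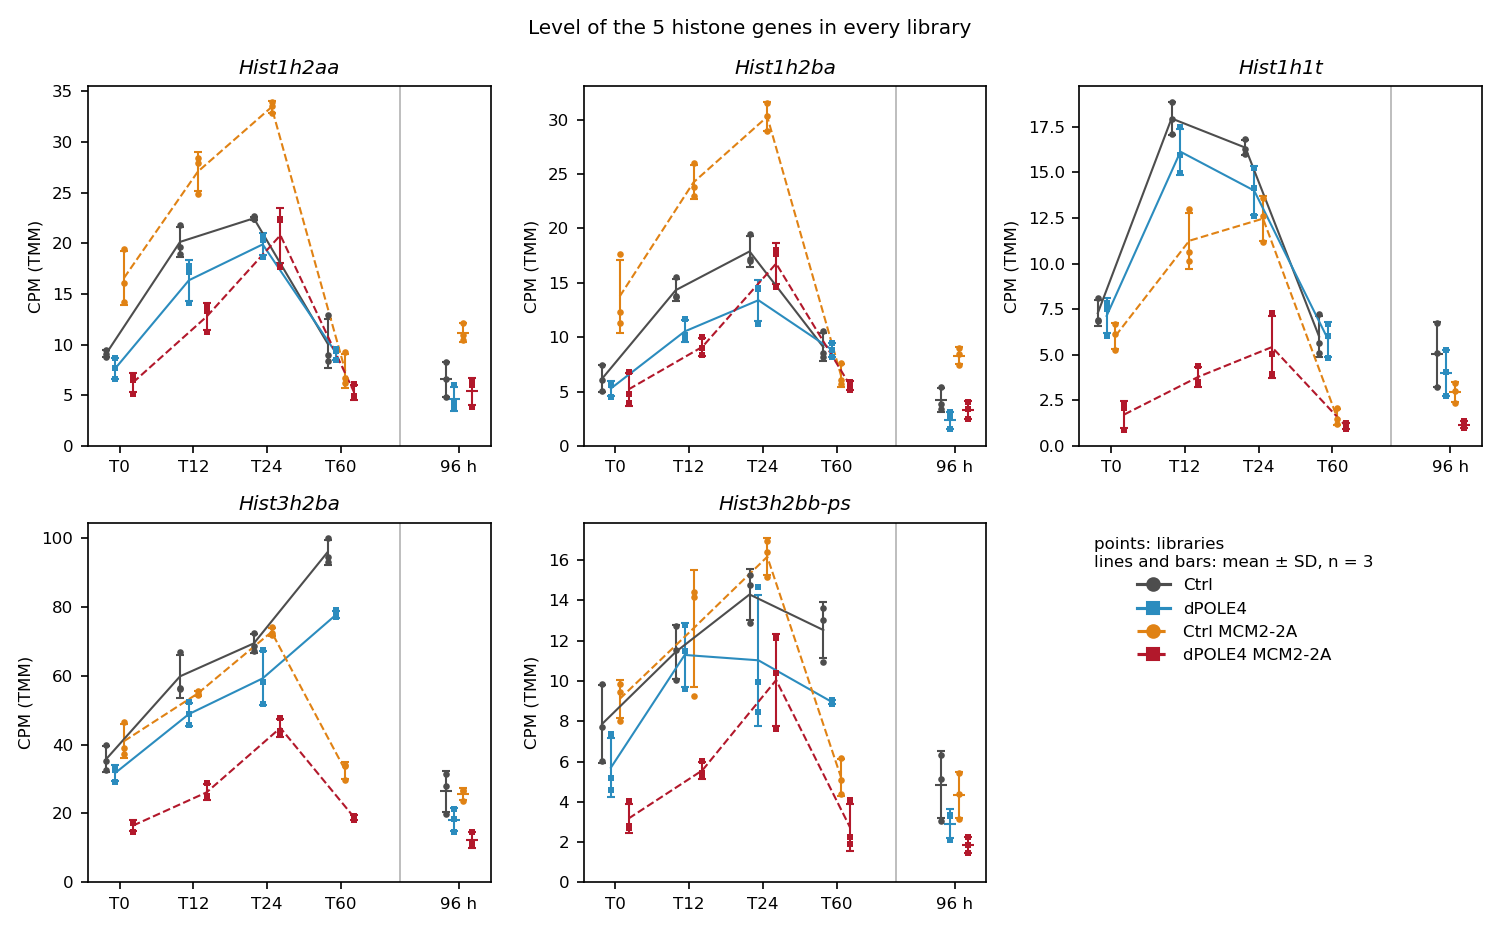
Level (CPM with TMM scaling, linear axes from 0) of each of the 5 histone genes in all 60 libraries. Points are libraries, lines and bars are means ± SD of 3, and the 96 h experiment stands apart at the right of each panel because it was normalised on its own. In Hist1h2aa and Hist1h2ba the Ctrl MCM2-2A cells rise highest and fall with dPOLE4, in Hist1h1t the dPOLE4 MCM2-2A cells stay lowest through T24, and in Hist3h2ba the WT cells climb to T60 while the MCM2-2A cells do not.

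The order of the levels differed between genes. Hist1h2aa was highest in Ctrl MCM2-2A at T24, at 33.4 ± 0.556 CPM, and lowest in dPOLE4 MCM2-2A at T60, at 5.28 ± 0.705 CPM. Hist1h2ba was likewise highest in Ctrl MCM2-2A at T24, at 30.3 ± 1.32 CPM, and was lowest in dPOLE4 MCM2-2A at T0, at 5.20 ± 1.48 CPM. The pair thus peaked in the same group. Hist1h1t peaked in Ctrl at T12, at 18.0 ± 0.880 CPM, and was lowest in dPOLE4 MCM2-2A at T60, at 1.10 ± 0.172 CPM. Hist3h2ba peaked in Ctrl at T60, at 95.8 ± 3.62 CPM, and was lowest in dPOLE4 MCM2-2A at T0, at 16.5 ± 1.65 CPM, while Hist3h2bb-ps ran from 16.2 ± 0.919 CPM in Ctrl MCM2-2A at T24 to 2.75 ± 1.17 CPM in dPOLE4 MCM2-2A at T60. Between neighbours in these orders of 16 groups the libraries mostly overlapped, at 12 of 15 steps for Hist1h2aa, Hist1h2ba and Hist1h1t, 8 for Hist3h2ba and 14 for Hist3h2bb-ps.

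At T0, the comparison on which the genes were chosen, Hist1h2aa stood at 19.4, 14.2 and 16.1 CPM in the 3 Ctrl MCM2-2A libraries and at 7.02, 5.17 and 6.55 CPM in the 3 dPOLE4 MCM2-2A libraries. Hist1h1t stood at 6.70, 5.28 and 6.12 against 2.22, 0.862 and 2.09 CPM. Both genes were lower in all 3 dPOLE4 MCM2-2A libraries. Hist1h2ba stood at 17.6, 11.3 and 12.3 against 6.84, 3.95 and 4.81 CPM, Hist3h2ba at 46.6, 39.0 and 37.3 against 17.7, 14.6 and 17.2 CPM, and Hist3h2bb-ps at 9.44, 8.03 and 9.85 against 2.69, 2.80 and 4.03 CPM. In all 5 genes every dPOLE4 MCM2-2A library lay below every Ctrl MCM2-2A library, which was so for 10.2% of the 18171 features tested at T0. The log2 fold changes were -1.39 ± 0.14 for Hist1h2aa, -1.40 ± 0.20 for Hist1h2ba, -1.72 ± 0.24 for Hist1h1t, -1.29 ± 0.10 for Hist3h2ba and -1.46 ± 0.18 for Hist3h2bb-ps (± SE, as for all fold changes here). Past both thresholds for differential expression (DE, an adjusted p below 0.01 and a log2 fold change over 0.58 in size) were 3 of the 5 (Hist1h2aa, Hist3h2ba and Hist3h2bb-ps), beside 0.0495% of all features in this direction, from which nothing is read because this comparison chose them.

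With RA the same question, whether POLE4 removal lowers these genes in MCM2-2A cells, was put to other libraries. Whether the comparisons at these and other times also entered the choice of the genes is not recorded. At T12, all 5 genes were DE and lower in dPOLE4 MCM2-2A, in a comparison where 0.188% of 18077 features were DE and lower. Hist1h1t fell most, from 13, 10.1 and 10.6 CPM in Ctrl MCM2-2A to 4.39, 3.48 and 3.47 CPM in dPOLE4 MCM2-2A, which was 3.01-fold lower (log2 fold change -1.59 ± 0.15, edgeR adjusted p = 0.000322). Hist1h2ba read 23.8, 22.9 and 26.0 CPM against 10.0, 8.36 and 8.98 CPM (-1.41 ± 0.10, edgeR adjusted p = 5.59e-05). Its partner Hist1h2aa, across the shared promoter, went the same way. Hist1h2aa read 28.5, 24.8 and 27.9 CPM against 13.8, 11.2 and 13.3 CPM (-1.08 ± 0.10, edgeR adjusted p = 0.000322). Hist3h2ba read 54.5, 55.5 and 54.4 CPM against 28.8, 24.9 and 24.7 CPM (-1.07 ± 0.08, edgeR adjusted p = 5.59e-05). Hist3h2bb-ps read 14.2, 14.4 and 9.25 CPM against 5.44, 5.22 and 6.03 CPM (-1.19 ± 0.16, edgeR adjusted p = 0.00335). In each of the 5 the groups did not overlap, as in 11% of all features in this direction. The pseudogene had the widest spread, and its call was lost without Ctrl MCM2-2A replicate 1 (adjusted p = 0.0276), dPOLE4 MCM2-2A replicate 1 (0.0146) or dPOLE4 MCM2-2A replicate 2 (0.0327).

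At T24 the differences were smaller than at T12 for each of the 5 genes, though the 2 time points were not tested against each other. In this comparison 4 of the 5 were DE and lower, against 0.504% of all features. Hist1h1t read 12.6, 11.2 and 13.6 CPM in Ctrl MCM2-2A against 5.06, 3.93 and 7.27 CPM in dPOLE4 MCM2-2A (-1.14 ± 0.18, edgeR adjusted p = 0.00172). Hist1h2ba read 28.9, 31.6 and 30.4 CPM against 17.7, 14.6 and 18.0 CPM (-0.84 ± 0.10, edgeR adjusted p = 0.000185). The libraries of the 2 groups did not overlap in either gene. Hist1h2aa read 32.8, 33.9 and 33.6 CPM against 22.3, 17.7 and 22.4 CPM (-0.67 ± 0.10, edgeR adjusted p = 0.000955), and Hist3h2ba 72.3, 71.6 and 74.0 CPM against 47.6, 42.8 and 44.0 CPM (-0.69 ± 0.07, edgeR adjusted p = 5.05e-05). Hist3h2bb-ps, at -0.66, missed the adjusted p (0.0126) and was DE without dPOLE4 MCM2-2A replicate 3 (-0.82, adjusted p = 0.00274). The groups did not overlap in any of the 5, as in 14% of all features in this direction. The call of Hist1h1t was lost without Ctrl MCM2-2A replicate 1 (adjusted p = 0.0116), and that of Hist1h2aa without Ctrl MCM2-2A replicate 2 (adjusted p = 0.0117) or dPOLE4 MCM2-2A replicate 2 (log2 fold change -0.57).

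By T60 fewer of the genes passed. Hist3h2ba was still DE and lower, at 19.2, 18.0 and 19.4 CPM in dPOLE4 MCM2-2A against 34.0, 29.6 and 33.9 CPM in Ctrl MCM2-2A (-0.78 ± 0.09, edgeR adjusted p = 0.000655), and was the only one of the 5 genes called, against 1.19% of all features. Its neighbour Hist3h2bb-ps read 2.24, 1.92 and 4.08 CPM against 4.37, 5.08 and 6.19 CPM (-0.90 ± 0.25, edgeR adjusted p = 0.0445), and was DE without dPOLE4 MCM2-2A replicate 3 (-1.32, adjusted p = 0.00105). Hist1h1t had by then dropped to 2.09, 1.49 and 1.23 CPM in Ctrl MCM2-2A itself, against 1.15, 0.904 and 1.24 CPM in dPOLE4 MCM2-2A (-0.54, edgeR adjusted p = 0.26). For Hist1h2aa and Hist1h2ba the differences were -0.49 ± 0.17 (adjusted p = 0.113) and -0.21 ± 0.15 (adjusted p = 0.464). Groups did not overlap in 3 of the 5, against 14.6% of all features in this direction, and overlapped in Hist1h1t and Hist1h2ba.

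After 96 h of treatment without RA, the 5 log2 fold changes in MCM2-2A cells lay between -1.33 and -1.04. Hist1h2ba read 8.47, 9.01 and 7.43 CPM in Ctrl MCM2-2A and 4.04, 2.46 and 3.38 CPM in dPOLE4 MCM2-2A, and Hist1h1t 3.47, 2.36 and 2.98 against 1.14, 0.995 and 1.35 CPM. Hist1h2aa read 10.4, 12.2 and 11 against 6.31, 6.03 and 3.81 CPM. In these and in the other 2 genes no library of one group reached the other, as in 8.02% of all features in this direction. Only Hist3h2ba passed both thresholds (26.7, 23.5 and 26.8 against 14.8, 10.5 and 11.5 CPM, -1.05 ± 0.15, edgeR adjusted p = 0.00938), beside 0.109% of all features. The adjusted p of the other genes was 0.0145 for Hist1h2ba, 0.0318 for Hist1h2aa, 0.0468 for Hist1h1t and 0.0905 for Hist3h2bb-ps. In this experiment libraries with the same replicate number deviated together, and once the replicate number was fitted as a block, each of the 5 genes was DE, at an adjusted p between 1.7e-08 (Hist3h2ba) and 0.00127 (Hist1h1t). DESeq2 without the block called 3 of the 5. The share of all features DE is given only for edgeR without the block, so that these counts stand without one. The call of Hist3h2ba without the block was lost when any library but dPOLE4 MCM2-2A replicate 1 was left out, with adjusted p between 0.0134 and 0.0744. Without dPOLE4 MCM2-2A replicate 1, Hist1h2ba was DE (-1.53, adjusted p = 0.00899).

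In cells with wild-type MCM2, differences after POLE4 removal did not pass the thresholds. None of the 5 was DE in edgeR at any of the 5 times, and DESeq2 called 0 as well. Over all features, 0% were DE at T0, T12, T24 and 96 h, and 0.193% at T60. An unadjusted p below 0.05 was reached by 2 of the 5 at T0, 3 at T12, 4 at T24, 2 at T60 and 3 at 96 h. Over all features it was reached by 2069 of 17792, 1150 of 17914, 1451 of 19093, 2446 of 17116 and 2164 of 17580 at these times. At T12, Hist1h1t read 18.0, 17.1 and 18.8 CPM in Ctrl and 17.5, 16 and 15.0 CPM in dPOLE4, and Hist1h2ba 13.7, 15.5 and 13.7 against 10.2, 11.7 and 9.70 CPM. The first pair of groups overlapped and the second did not. For WT cells the share of all features without overlap is not given. At T60, Hist3h2ba read 94.5, 93.0 and 99.9 CPM in Ctrl and 77.2, 79.0 and 77.0 CPM in dPOLE4, without overlap (-0.28 ± 0.06, edgeR adjusted p = 0.0168), which was the smallest adjusted p among these 25 values. All 25 log2 fold changes were below 0, where 49.5% to 50.6% of all features were, and 5 of them (Hist1h1t at T0, Hist3h2bb-ps at T12, and Hist1h2aa, Hist1h2ba and Hist1h1t at T60) turned positive when some single libraries were left out. They ran from -0.47 to -0.03 at T0, from -0.44 to -0.02 at T12, from -0.40 to -0.18 at T24, from -0.48 to -0.02 at T60 and from -0.79 to -0.30 at 96 h. With the replicate block at 96 h, Hist1h2ba (-0.81 ± 0.19, adjusted p = 0.00679) and Hist3h2bb-ps (-0.72 ± 0.17, adjusted p = 0.0069) were DE. The share of all features DE with the block is not given. The 5 values of a time share their libraries, so that they are not 5 separate observations.

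**Figure D2:**
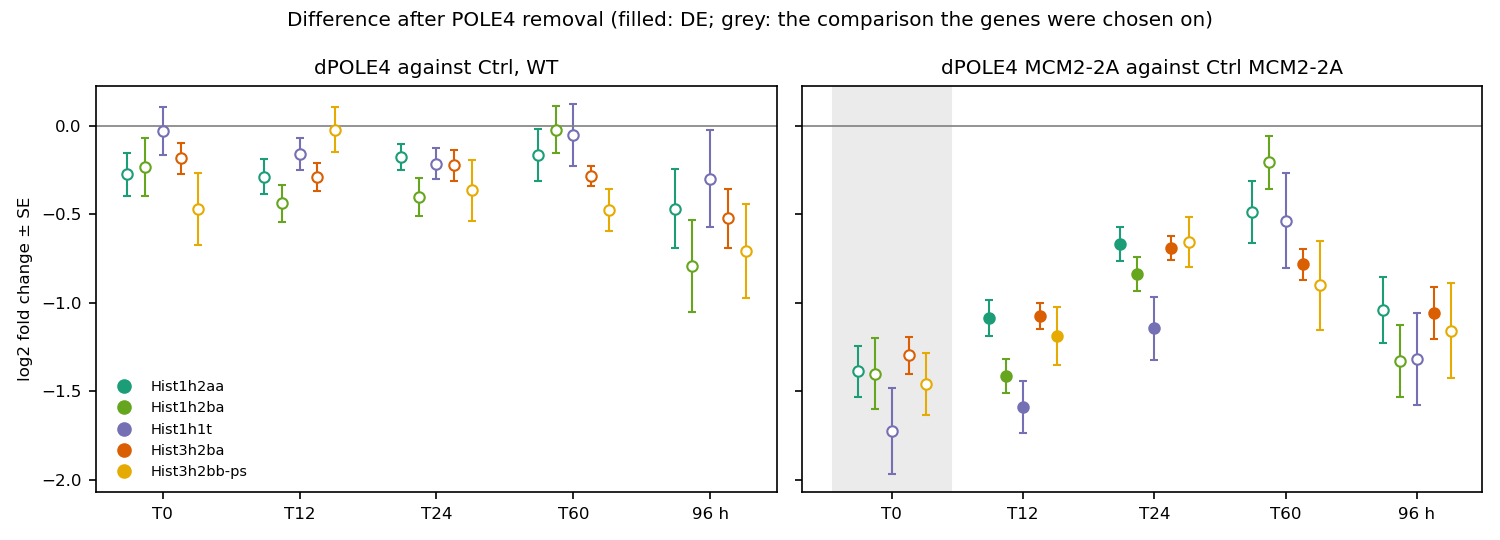
Log2 fold change (± SE) after POLE4 removal for the 5 genes, in WT cells (left) and in MCM2-2A cells (right), at each time. Filled points are DE, open points are not, and the grey band marks the T0 comparison on which the genes were chosen. In MCM2-2A cells the values lie between -1.07 and -1.59 at T12 and between -0.21 and -0.90 at T60, while the WT values lie between -0.79 and -0.02 over all times.

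Whether the effect differed between the backgrounds was tested with the interaction of dPOLE4 and MCM2-2A over all 12 libraries of a time. At T12 the difference was -1.43 ± 0.17 for Hist1h1t (edgeR adjusted p = 0.00222), the only one of the 5 genes past both thresholds, against 0.0159% of all features. The differences were -0.97 for Hist1h2ba (adjusted p = 0.0114), -0.78 for Hist3h2ba (adjusted p = 0.0118), -0.79 for Hist1h2aa (adjusted p = 0.0756) and -1.16 for Hist3h2bb-ps (adjusted p = 0.0849). DESeq2 called all 5 at T12, and so did edgeR without the expression filter. The share of all features DE in these fits is not given. The call of Hist1h1t was lost without Ctrl replicate 1 (adjusted p = 0.0117), dPOLE4 replicate 1 (0.0112), dPOLE4 MCM2-2A replicate 2 (0.0165) or dPOLE4 MCM2-2A replicate 3 (0.0104). Leaving out Ctrl replicate 2 made Hist1h2ba (adjusted p = 0.00764) and Hist3h2ba (0.0021) DE, and leaving out Ctrl MCM2-2A replicate 3 did so for Hist3h2bb-ps (0.00718). At T24, T60 and 96 h, 0 of the 5 were called by edgeR, against 0.0351%, 0.1% and 0% of all features. At these times 4, 1 and 2 of the 5 had an unadjusted p below 0.05, and DESeq2 called 1, 0 and 0. Over all features 1759 of 19961, 1922 of 18982 and 686 of 18555 had such an unadjusted p. The largest at T60 was that of Hist3h2ba, at -0.49 (adjusted p = 0.0284).

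The 2 lines also differed before any dTAG. Between Ctrl MCM2-2A and Ctrl, the H2A and H2B pair Hist1h2aa and Hist1h2ba had positive log2 fold changes through T24 and at 96 h, while those of Hist1h1t were negative at every time. At T24, Hist1h2ba read 17.2, 19.5 and 17.0 CPM in Ctrl against 28.9, 31.6 and 30.4 CPM in Ctrl MCM2-2A (0.78 ± 0.08, edgeR adjusted p = 2.5e-07). Hist1h2aa read 22.7, 22.4 and 22.4 CPM against 32.8, 33.9 and 33.6 CPM (0.60 ± 0.06, edgeR adjusted p = 6.84e-07). These were the 2 members called at T24, against 17.3% of all features. No libraries overlapped in either gene, but the share of all features without overlap is not given for this comparison. At T12, Hist1h2ba (0.77 ± 0.09, edgeR adjusted p = 0.000107) and Hist1h1t (-0.66 ± 0.11, edgeR adjusted p = 0.00107) were DE, against 14.5% of all features, and Hist1h2aa was higher by 0.44, under the fold threshold. The T0 values, not tested because Ctrl MCM2-2A at T0 took part in the choice of the genes, were 0.85 for Hist1h2aa, 1.14 for Hist1h2ba and -0.27 for Hist1h1t. At 96 h, Hist1h2aa (0.80 ± 0.18, edgeR adjusted p = 0.00461) and Hist1h2ba (1.00 ± 0.20, edgeR adjusted p = 0.00173) were DE and higher in MCM2-2A, as were 1626 of all 17623 features (15.7% DE in either direction). The first call was lost without Ctrl replicate 1 (adjusted p = 0.015), Ctrl replicate 3 (0.0184), Ctrl MCM2-2A replicate 2 (0.0183) or Ctrl MCM2-2A replicate 3 (0.0191), and the second without Ctrl replicate 3 (0.0112). Without Ctrl replicate 1, Hist1h1t was DE and lower (-1.03, adjusted p = 0.00498).

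At T60 all 5 values were negative. Hist1h1t (-1.91 ± 0.22, edgeR adjusted p = 6.44e-06), Hist3h2ba (-1.55 ± 0.07, edgeR adjusted p = 1.88e-09) and Hist3h2bb-ps (-1.26 ± 0.15, edgeR adjusted p = 6.64e-06) were DE and lower in Ctrl MCM2-2A. Of all 18056 features, 1431 were DE and lower, and 16.9% were DE in either direction. In levels, Hist3h2ba stood at 94.5, 93.0 and 99.9 CPM in Ctrl and at 34.0, 29.6 and 33.9 CPM in Ctrl MCM2-2A. Hist1h1t stood at 7.24, 5.67 and 5.09 against 2.09, 1.49 and 1.23 CPM. Neither gene's libraries overlapped, and here too the share of all features without overlap is not given. Hist1h2aa (-0.47) and Hist1h2ba (-0.48) were not called, with adjusted p of 0.0477 and 0.0193, but both were DE and lower without Ctrl MCM2-2A replicate 1 (-0.64 and -0.60, adjusted p of 0.00728 and 0.00625). For the chromosome 11 pair a wider shift moves beside these values. The median log2 fold change of all tested genes on chromosome 11 in the same comparison was -0.48 at T0, -0.51 at T12, -0.49 at T24, -0.55 at T60 and -0.51 at 96 h, while that of chromosome 13 lay between -0.11 and -0.03. Against that median, Hist3h2ba at -0.11 (T12), 0.09 (T24) and -0.03 (96 h) lay higher, and at T60 lower. After POLE4 removal in MCM2-2A cells, both chromosome medians stayed between -0.05 and 0.02 at all times. The 2 comparisons share the Ctrl MCM2-2A libraries, so that a high reading there would raise one and lower the other.

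**Figure D3:**
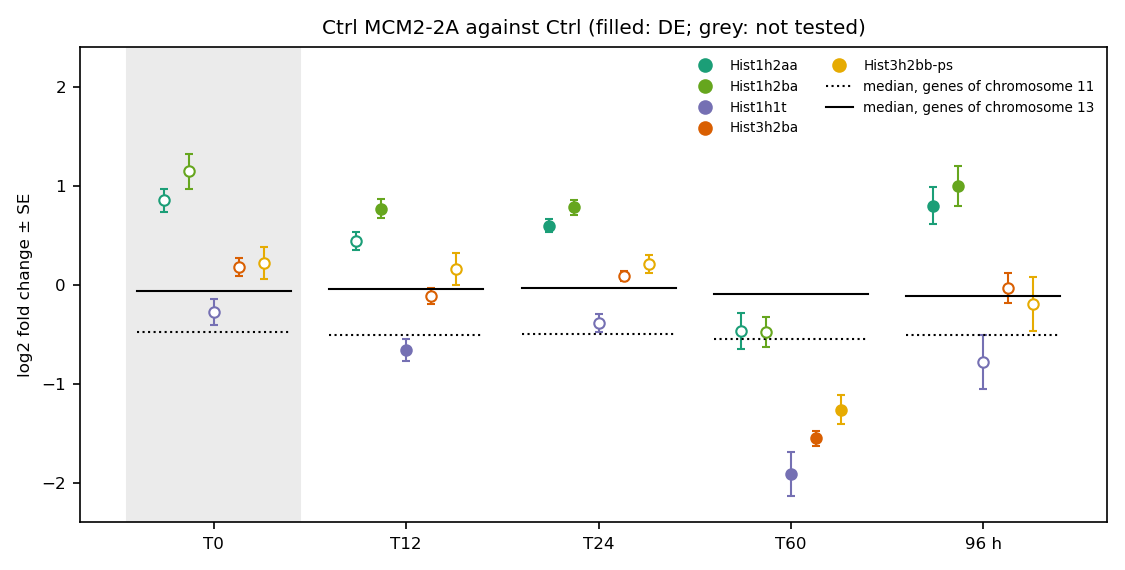
Log2 fold change (± SE) of the 5 genes between Ctrl MCM2-2A and Ctrl at each time. Filled points are DE, the grey band marks T0, which was not tested, and black lines give the median of all tested genes on chromosome 11 (dotted, near -0.5) and chromosome 13 (solid, near 0). Hist1h2aa and Hist1h2ba lie above 0 except at T60, where all 5 genes lie below it.

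RA changed the genes in both directions over time. In the first 12 h, 4 of the 5 were DE and rose in Ctrl, as did 1279 of 17673 features (11.3% DE in either direction). In dPOLE4 5 of 5 did so, as did 1305 of 18176 features (11.7% in either direction). Hist1h1t rose from 6.92, 8.10 and 6.83 CPM to 18.0, 17.1 and 18.8 CPM in Ctrl (log2 fold change 1.31 ± 0.10, edgeR adjusted p = 1.77e-06). Hist1h2aa rose from 8.79, 9.12 and 9.46 to 19.0, 21.8 and 19.6 CPM in the same cells (1.14 ± 0.10, edgeR adjusted p = 2.74e-06). Hist1h2ba and Hist3h2ba rose by 1.22 and 0.74 on the log2 scale, and Hist3h2bb-ps, at 0.55 (adjusted p = 0.0212), did not pass. It was DE without Ctrl T0 replicate 1 (0.75, adjusted p = 0.00516) or Ctrl T12 replicate 2 (0.63, adjusted p = 0.0083). In dPOLE4 the increases were 1.16 for Hist1h1t, 1.11 for Hist1h2aa, 0.99 for Hist1h2ba, 0.62 for Hist3h2ba and 0.98 for Hist3h2bb-ps. That of Hist3h2ba went under the fold threshold without dPOLE4 T0 replicate 3 (0.55) or dPOLE4 T12 replicate 2 (0.57). In the MCM2-2A line the steps from T0, not tested, were between 0.46 (Hist3h2ba) and 0.93 (Hist1h1t) in Ctrl MCM2-2A and between 0.67 (Hist3h2ba) and 1.05 (Hist1h1t) in dPOLE4 MCM2-2A. The genes that were lower after POLE4 removal at T0 and T12 thus still had positive RA steps between these times.

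From T12 to T60, Hist1h1t, Hist1h2aa and Hist1h2ba had negative steps in all 4 arms. Hist3h2ba had positive steps in the WT arms and negative ones in the MCM2-2A arms. In Ctrl, 43.4% of all features were DE over this step, and among the 5 genes Hist1h1t (-1.56), Hist1h2aa (-0.97) and Hist1h2ba (-0.67) fell while Hist3h2ba rose (0.68 ± 0.08, edgeR adjusted p = 7.24e-06). In dPOLE4 (44.1%), Hist1h1t (-1.46) and Hist1h2aa (-0.85) fell and Hist3h2ba rose (0.68 ± 0.05, edgeR adjusted p = 9.69e-11), with Hist1h2ba at -0.26 and Hist3h2bb-ps at -0.33 under the fold threshold. In Ctrl MCM2-2A (41.8%, with 3340 of 18638 features DE and lower) all 5 fell, Hist1h1t most (-2.80 ± 0.19, edgeR adjusted p = 3.97e-08), followed by Hist1h2ba (-1.90), Hist1h2aa (-1.86), Hist3h2bb-ps (-1.28) and Hist3h2ba (-0.74). In dPOLE4 MCM2-2A (38.3%, with 3084 of 18775 features DE and lower) 4 fell, at -1.76 for Hist1h1t, -1.27 for Hist1h2aa, -1.0 for Hist3h2bb-ps and -0.70 for Hist1h2ba, and Hist3h2ba stood at -0.47 (adjusted p = 0.00103), under the fold threshold. The call of Hist3h2bb-ps there was lost without T12 replicate 3 (adjusted p = 0.0104), T60 replicate 1 (0.0108) or T60 replicate 2 (0.011). Hist3h2ba was the one gene DE and higher in both WT arms, and it was DE and lower in Ctrl MCM2-2A.

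The difference of this step between the lines was tested after the T60 values had been seen. Between Ctrl MCM2-2A and Ctrl it was DE for all 5 genes, against 6.01% of all features, with Hist3h2ba at -1.43 ± 0.11 (edgeR adjusted p = 1.73e-07), Hist3h2bb-ps at -1.42 ± 0.23 (adjusted p = 0.00055), Hist1h1t at -1.25 ± 0.24 (adjusted p = 0.00184), Hist1h2ba at -1.24 ± 0.17 (adjusted p = 0.000128) and Hist1h2aa at -0.90 ± 0.22 (adjusted p = 0.00872). The call of Hist1h2aa was lost on leaving out any library but Ctrl T12 replicate 2, Ctrl T60 replicate 2, Ctrl MCM2-2A T12 replicate 2 or Ctrl MCM2-2A T60 replicate 1, with adjusted p between 0.0117 and 0.0426. Between dPOLE4 MCM2-2A and dPOLE4, only Hist3h2ba was DE (-1.15 ± 0.10, edgeR adjusted p = 3.65e-07), against 7.74% of all features, and Hist3h2bb-ps became so without dPOLE4 MCM2-2A T60 replicate 3 (-1.11, adjusted p = 0.000635). On these differences of steps the medians of chromosome 11 were -0.01 for both pairs of arms. At T60 the summed stem cell markers lay between 267 and 361 CPM in Ctrl and between 612 and 768 CPM in Ctrl MCM2-2A, and their part in these values was not tested.

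**Figure D4:**
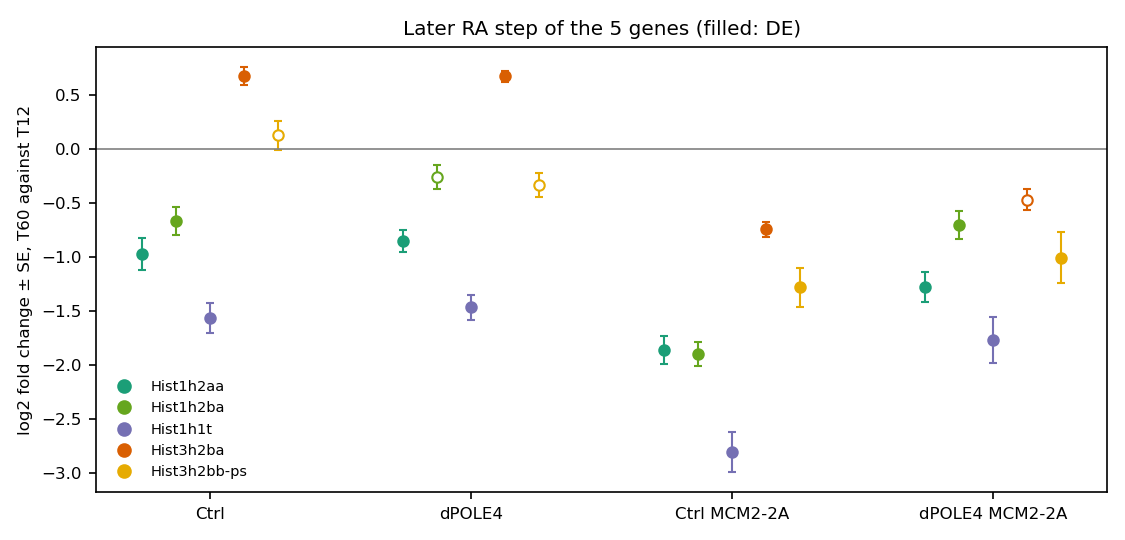
Log2 fold change (± SE) from T12 to T60 of RA for the 5 genes in the 4 arms. Filled points are DE. Hist3h2ba lies at 0.68 in both WT arms and below 0 in both MCM2-2A arms, and Hist1h1t is the lowest gene in every arm.

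The other histone genes of the clusters give the setting for these values. Of 63 replication-dependent histone genes other than the 5, 1 was DE and lower after POLE4 removal in MCM2-2A cells at T12 (Hist3h2a, -0.79), 2 at T24, 4 at T60 (among them Hist1h2bh at -0.79 and Hist1h2ae at -0.60) and 0 of 62 at 96 h, and none was higher. These counts are edgeR's. DESeq2 called 3 lower at T12, 2 at T24, 6 at T60 and 1 at 96 h, and at an unadjusted edgeR p below 0.05 were 53, 52, 52 and 45 of them, with a lowest value of -0.81 at 96 h. Over all features, 3179 of 18077, 3888 of 18441, 4302 of 18473 and 2004 of 17421 were at such an unadjusted p. At T0, in the comparison that chose the 5 genes, edgeR called 1 of these 63 and DESeq2 called 24, all 24 lower. Their median log2 fold change was -0.38 at T12, -0.27 at T24, -0.36 at T60 and -0.29 at 96 h, where the median of all features lay between -0.002 and 0.004, and 62, 59, 62 and 60 of them were below 0. At T0 none of them was as low as any of the 5 genes, from which nothing is read because the 5 were chosen there. The same held at T12 and at 96 h. At T24, 0 were lower than Hist1h1t, 1 than Hist1h2ba, 2 than Hist1h2aa, 2 than Hist3h2ba and 3 than Hist3h2bb-ps. By T60 the order had changed, with 55 lower than Hist1h2ba, 11 than Hist1h2aa, 8 than Hist1h1t, 4 than Hist3h2ba and 1 than Hist3h2bb-ps. In WT cells their medians were -0.02 at T12, -0.05 at T24, -0.19 at T60 and -0.13 at 96 h, and 0 were DE at any time in edgeR or DESeq2, with an unadjusted p below 0.05 in 8, 3, 36 and 16 of them at these times and in 4 at T0. The counts of all features at such a p in WT cells are given above. Between the lines at T60, 27 of the 63 were DE and lower in Ctrl MCM2-2A, as were 1431 of all 18056 features. The median of the 63 was -0.52.

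**Figure D5:**
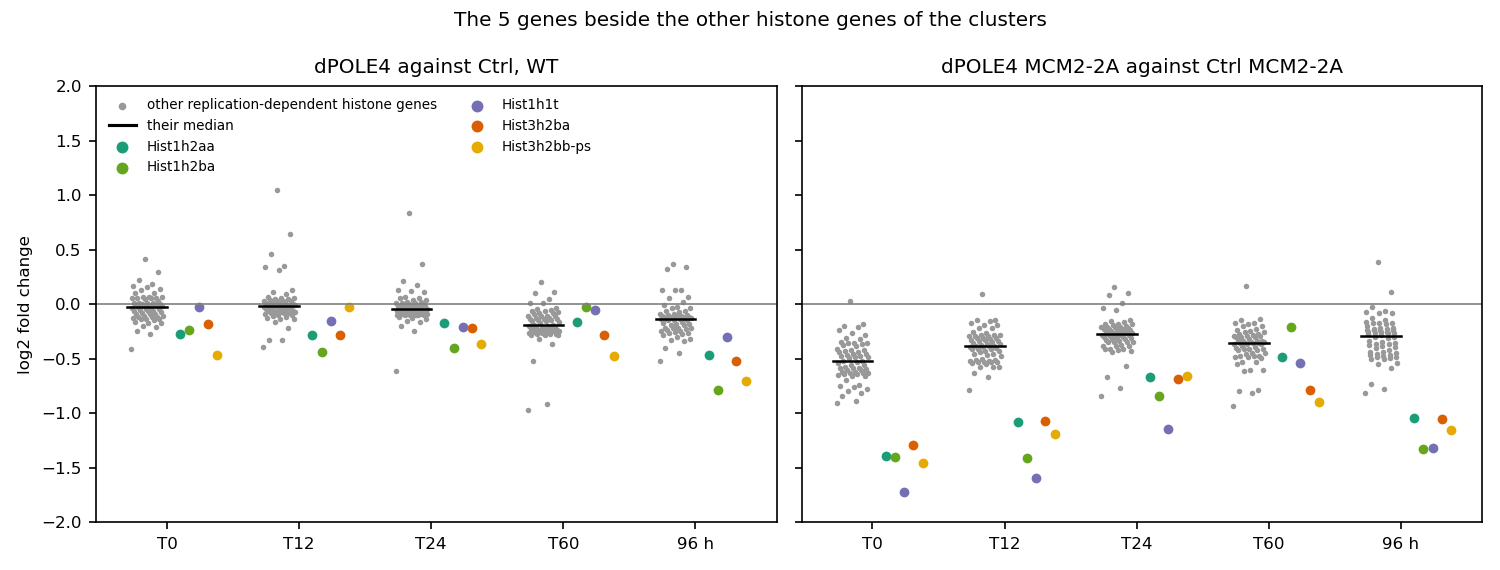
Log2 fold change after POLE4 removal of the 5 genes (coloured points) and of the other replication-dependent histone genes (grey points, 63 in all, 62 at 96 h in MCM2-2A cells), with the median of the latter as a black line, in WT cells (left) and in MCM2-2A cells (right). In MCM2-2A cells the 5 genes lie below all grey points at T0, the comparison on which they were chosen. They also do so at T12 and 96 h, and they lie among the grey points at T60.

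Factors known to act on histone genes and their RNAs, such as SLBP and the transcription factor NPAT, were looked at as a list of 20. In each dPOLE4 comparison of either background 0 of them were DE in edgeR or DESeq2 and 0 to 4 had an unadjusted p below 0.05, with medians between -0.05 and 0.03. Of all features, between 1150 of 17914 (WT, T12) and 4302 of 18473 (MCM2-2A, T60) had such an unadjusted p in these comparisons. Of 20 genes known from germ cells that do not encode histones, 16 or 17 were tested. After POLE4 removal in MCM2-2A cells 0 of these were DE in edgeR at T12, T24 and 96 h (unadjusted p below 0.05 in 7, 6 and 6 of them, and 0, 0 and 1 called by DESeq2), and 3 were higher at T60 (Taf7l at 0.66, Slc25a31 at 0.96 and Sycp1 at 0.87). Their medians were 0.22 at T12, 0.16 at T24, 0.40 at T60 and 0.37 at 96 h, opposite in sign to the values of Hist1h2aa, Hist1h2ba and Hist1h1t. In WT cells 0 were DE in either tool, and 2 to 6 had an unadjusted p below 0.05.

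The neighbours within 50 kb of the 5 genes, of which 13 of 25 were tested at T12, included other genes that were lower. At T12 in MCM2-2A cells 3 of 13 were DE and lower, all beside Hist3h2ba and Hist3h2bb-ps, namely Hist3h2a (-0.79), the gene Trim17 that is annotated over it (-0.78) and the pseudogene Gm12260 (-0.86). Hist3h2a encodes an H2A, and its start lies 173 bases from that of Hist3h2bb-ps, on the other strand. Since Hist3h2a and Trim17 share a start and strand, reads from the stretch that both cover cannot be told apart, while Trim17 runs on past the end of Hist3h2a. Gm12260 lies on the same strand within the span of Trim17, so that these 3 genes are not separate places. At T60, Hist3h2a (-0.60) and Trim17 (-0.58) were DE and lower, and 0 of 13 were so at T24 and 0 of 11 at 96 h. At these 2 times 9 and 7 had an unadjusted p below 0.05, and DESeq2 called 0 and 2 of them lower. Of all features, 3888 of 18441 and 2004 of 17421 had such an unadjusted p. In WT cells 0 were DE at any time in edgeR or DESeq2, and 1 to 6 had an unadjusted p below 0.05, against 1150 of 17914 (T12) to 2446 of 17116 (T60) features. Between the lines at T60, 5 of 13 neighbours were DE and lower in Ctrl MCM2-2A, as were 1431 of all 18056 features. On chromosome 11 these were Hist3h2a (-1.18), Trim17 (-1.17) and Gm12260 (-1.93), where the median of all tested genes of that chromosome was -0.55. Beside Hist1h1t they were Hist1h4c (-0.64) and the linker histone gene Hist1h1c (-0.69).

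Across the 16 group means of T0 to T60, the pattern of each gene was set against that of 21330 features by Pearson's r of log2 CPM, as a description. Hist1h2aa and Hist1h2ba were most like each other (r = 0.965), and next came Psip1 (0.931) for the former and Bnip3 (0.907) for the latter. Hist1h1t was most like Hist1h2bn (0.980), Hist1h1d (0.966) and Hist1h2ab (0.963), all replication-dependent histone genes. Hist3h2ba was most like Trim17 (0.962) and Hist3h2a (0.960), its neighbours. Hist3h2bb-ps was most like Hist1h4n (0.949) and Hist1h2bh (0.949), and then came Hist1h2ac (0.930), Mllt10 (0.922) and Hist3h2ba (0.914). Hist1h2aa stood at 0.790 with Hist1h1t and at 0.627 with Hist3h2ba. The points share their libraries. Over the 48 single libraries, Hist1h2aa and Hist1h2ba were again each other's nearest feature (r = 0.946).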

How the data were processed

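Total RNA depleted of rRNA was sequenced with strand-specific libraries and paired reads, per the labels and the study's methods. The authors trimmed reads with cutadapt 4.2, aligned them to mm10 in STAR, keeping multiple alignments, and counted reads per gene and repeat subfamily with TEcount on GENCODE M25, and they deposited these counts without normalization in 2 tables, analysed separately. Gene symbols came from GENCODE M21, which named 55141 of 55487 genes. The analysis used edgeR 4.0.16 in R 4.3.3, and DESeq2 1.42.0, the study's tool, as an alternative. Each 2-group comparison was filtered with filterByExpr (minimum count 10, minimum total 15), scaled with TMM and compared by the quasi-likelihood F test of edgeR, with Benjamini-Hochberg adjustment over all features tested. All 5 genes passed the filter in every comparison. DE meant an adjusted p below 0.01 and a log2 fold change over 0.58 in size. SE is the log2 fold change over the square root of F. CPM use TMM library sizes, and correlations use a prior count of 2.

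The members, lists and tests were chosen with earlier results of these data known, and which comparisons other than that at 24 h in MCM2-2A cells entered the choice of the genes is not recorded. Comparisons that share its libraries in the MCM2-2A background at T0 were therefore not tested. The genes named are the 5 members, genes starting within 50 kb of one, the 5 features most like each, and those of fixed lists of histone, histone RNA and germ cell genes and cell markers. The study calls the libraries of a group biological replicates and 0 of 60 pairs within groups were identical. P-values measure the spread between these samples. Libraries with the same replicate number deviated together (every r above 0.1) in the 4 kinds of comparison at 96 h only, where the fit with the replicate block is given beside the result.

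Alternatives were DESeq2, other scalings, leaving out the filter, a minimum of 10 counts in each library, the replicate block, robust estimation, all 4 groups of a time in 1 fit, no fold threshold, and each library left out in turn. Shares of all features DE are given for the main edgeR fits and not for these alternatives. The main edgeR fits, of 2 groups and of the interaction, were run on data simulated from T12 libraries, and the alternatives and the 96 h experiment were not. Promoters are RefSeq's, on GRCm38.p6.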

Additional observations from a re-analysis of the deposited data

Results flagged for a closer look

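The following differences between groups stood out by a test of the difference itself. The effect of POLE4 removal on Hist1h1t at T12 was lower in MCM2-2A cells than in WT cells by -1.43 on the log2 scale (edgeR adjusted p = 0.00222). The step from T12 to T60 of RA was lower in Ctrl MCM2-2A than in Ctrl by -0.90 for Hist1h2aa, -1.24 for Hist1h2ba, -1.25 for Hist1h1t, -1.43 for Hist3h2ba and -1.42 for Hist3h2bb-ps, and lower in dPOLE4 MCM2-2A than in dPOLE4 by -1.15 for Hist3h2ba. The tests of the RA step were added after the T60 values had been seen, and what moves with these values was not tested.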

How the results depend on the processing

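Over T12, T24, T60 and 96 h, 11 of 20 values of the 5 genes were DE and lower after POLE4 removal in MCM2-2A cells. Of all features, 0.109% (96 h) to 1.19% (T60) were DE and lower at a single time. The count of 11 became 14 with DESeq2, 17 without the filter, 16 with the replicate block, 10 with at least 10 counts in every library, and 10 to 12 with 1 library left out. In WT cells 0 of 25 were DE under all these settings (0 to 0 with 1 library left out) except the replicate block, which called 2. For the difference between backgrounds the count of 1 of 20 became 6 with DESeq2, 6 without the filter and 3 with robust estimation, and was 0 to 3 with 1 library left out. Between the lines 9 of 20 were DE (7 to 11 with 1 library left out), over RA steps 25 of 30 (24 to 26), and for the difference of the later RA step 6 of 10 (5 to 7). Of all features, 14.5% to 17.3% were DE in a comparison of the lines and 11.3% to 44.1% over an RA step. For the difference of the later step these were 6.01% and 7.74%. The values in each count share genes and libraries, so that they are not separate observations. The cause of these changes was not tested. Outside 96 h, not every r between same-numbered libraries was above 0.1, though r lay between 0.099 and 0.25 for dPOLE4 MCM2-2A against Ctrl MCM2-2A at T0. The replicate block left the counts for the lines at 9, for RA steps at 25 and for the backgrounds at 1. After POLE4 removal in MCM2-2A cells, the block changed the count of genes called from 5 to 4 at T12, from 4 to 5 at T24 and from 1 to 2 at T60.

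Of the values of single genes, 14 changed sign, all on leaving out 1 library. In dPOLE4 against Ctrl at T0, Hist1h1t ranged from -0.10 to 0.068 (above 0 without Ctrl replicate 2 or dPOLE4 replicate 1). Hist3h2bb-ps at T12 ranged from -0.13 to 0.086 (above 0 without Ctrl replicate 3 or dPOLE4 replicate 3). At T60, Hist1h2aa ranged from -0.27 to 0.070 (above 0 without Ctrl replicate 1), Hist1h2ba from -0.077 to 0.087 (without Ctrl replicate 3 or dPOLE4 replicate 3) and Hist1h1t from -0.15 to 0.12 (without Ctrl replicate 1 or dPOLE4 replicate 3). In Ctrl MCM2-2A against Ctrl at 96 h, Hist3h2ba ranged from -0.20 to 0.11 (above 0 without Ctrl replicate 2 or 3 or Ctrl MCM2-2A replicate 2), and Hist3h2bb-ps from -0.45 to 0.032 (without Ctrl replicate 2 or Ctrl MCM2-2A replicate 3).

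With 12 to 529 counts a library, Hist1h1t had the lowest counts of the 4 protein-coding genes, and the library with the lowest total was Ctrl MCM2-2A replicate 1 of 96 h, at 7126100 counts.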
